A study of Mus musculus with 6 samples.

Results

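The clustered protocadherins were followed in primary mouse cortical cultures with 40 array probes that carry the name of a protocadherin alpha, beta or gamma gene. The members were every probe that is not a control and whose gene name in the scanner files is a Pcdha, Pcdhac, Pcdhb, Pcdhga, Pcdhgb or Pcdhgc gene. They named 36 genes, of 37008 gene names on the array, and were taken from 56605 probes in all. Of the genes in a mouse RefSeq table, the probes named 7 of 14 in the alpha cluster, 22 of 22 in the beta cluster and 7 of 22 in the gamma cluster. Among these, Pcdhac2, Pcdhga9 and Pcdha8 were named only by probes that list transcripts of other member genes as well. All 40 probes lie on chromosome 18 of build mm9, between positions 37114742 and 38001437, a stretch of 886.7 kb that runs from Pcdha4 to the end of the gamma cluster.

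Clustered protocadherins are cadherin-like adhesion molecules of the neuronal surface that bind only to identical partners on the facing membrane. Each neuron switches on a small, largely random choice of isoforms through promoters bound by the insulator protein Ctcf, and the combination serves as a cell's identity label that keeps its own dendrites and axons from crossing. In the alpha and gamma clusters a variable first exon, which encodes the extracellular part, is spliced to constant exons shared by every isoform of that cluster, while each beta gene is a single coding exon without a shared end. The C-type isoforms at the end of the alpha and gamma clusters are expressed more uniformly than the randomly chosen ones. In the cortex, alpha isoforms take part in axon projection and gamma isoforms in dendrite arborisation and in the survival of interneurons.

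The cultures came from C57/B6 cerebral cortices at embryonic day 16, plated at high density on poly-D-lysine in Neurobasal medium with B27 plus, and all carried no genetic change that the labels name. The 3 control cultures were not irradiated, and the labels do not say whether they were handled alongside the exposed ones. The 3 irradiated cultures received terahertz radiation at 3.1 THz for 3 hours a day between day 5 and day 9 in vitro, and RNA of all 6 cultures was collected at day 12 in vitro and hybridised to 1-colour Agilent arrays. Both groups number their cultures 1 to 3 in the labels. Nothing there tells whether these were separate dissections, so the p-values below reflect how far these samples spread, and that spread may be technical.

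Levels are log2 signal minus the 75th percentile of the same array, which was between 320 and 892 intensity units, and a difference is always irradiated minus control on that log2 scale. Spots well above background made up 64.9% to 74.7% of each array. Control 1 stood apart from the rest: on the first principal component, which held 55.2% of the variation over 40552 probes, it lay at -148 and the other 5 arrays between 11.5 and 62.0. Differences of named member probes that leaving this array out turned or moved most are also given without it. The cultures were mixed. All 8 neuron markers (Tubb3, Map2, Rbfox3, Snap25, Syt1, Slc17a7, Gad1, Gad2), all 8 astrocyte markers, all 8 markers of oligodendrocytes and their precursors and all 8 microglia markers were measured. Among the markers of other cells, Cldn5 and Cdh5 of endothelium and Slc6a4 of serotonergic neurons were well above background on fewer than 3 arrays. In such a bulk sample, fewer cells of a type and less RNA per cell cannot be told apart.

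The first question was which isoform probes gave a signal. Of the 40 member probes, the scanner software called 37 well above background on 3 or more of the 6 arrays, compared with 71.7% of all probes, and 30 on all 6 arrays, compared with 61% of all probes. These 37 probes entered the tests. In the beta cluster 22 of 23 probes passed, 19 of them on all 6 arrays. All 6 alpha isoform probes passed, 4 of them on every array. Detection was thinnest among the gamma isoform probes, of which 5 of 7 passed and 3 were measured on every array. The counts describe probes, since a probe's brightness also depends on its sequence: the median GC content was 51.7% for alpha isoform probes, 36.7% for beta, 45% for gamma and 41.7% over the whole array. No member probe shared more than 12 bases in a row with a probe of another member gene. Matches of the probes to transcripts of other genes were not checked.

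Pcdhb1, at the start of the beta cluster, was the beta gene that did not pass. Its levels were -4.63, -4.95 and -6.13 in controls 1 to 3 and -6.07, -6.87 and -5.98 in irradiated 1 to 3. It was well above background in 2 controls and in no irradiated culture. Setting the mean of the controls against a floor gave a ratio of 1.67, lower in the irradiated cultures. The floor was, on each irradiated array, whichever was higher: the probe's signal there or the dimmest signal that counted as well above background. Control 3 was itself below the dimmest such signal on its array (-5.91), so this ratio is not a firm lower bound. The difference was -1.07, with an adjusted p of 0.361 in limma run without the filter. The values of the groups overlapped. The second probe of Pcdhgb1 and the probe of Pcdhga12 were not well above background on any array.

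Detection also differed by group for probes close to background. Pcdhga5 was well above background in 3 irradiated cultures and in no control. Its levels were -5.65, -5.77 and -6.12 in controls 1 to 3 and -5.50, -5.88 and -5.52 in irradiated 1 to 3. The groups overlapped on this probe and the difference was 0.21 (95% interval -0.32 to 0.75). Pcdhac1 and Pcdhb19 were well above background in 1 control and 3 irradiated cultures. Fewer members were well above background on control 1 (32) and control 2 (34) than on the other 4 arrays (36 or 37), and the share of all spots well above background was also lowest on control 1.

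**Figure D1:**
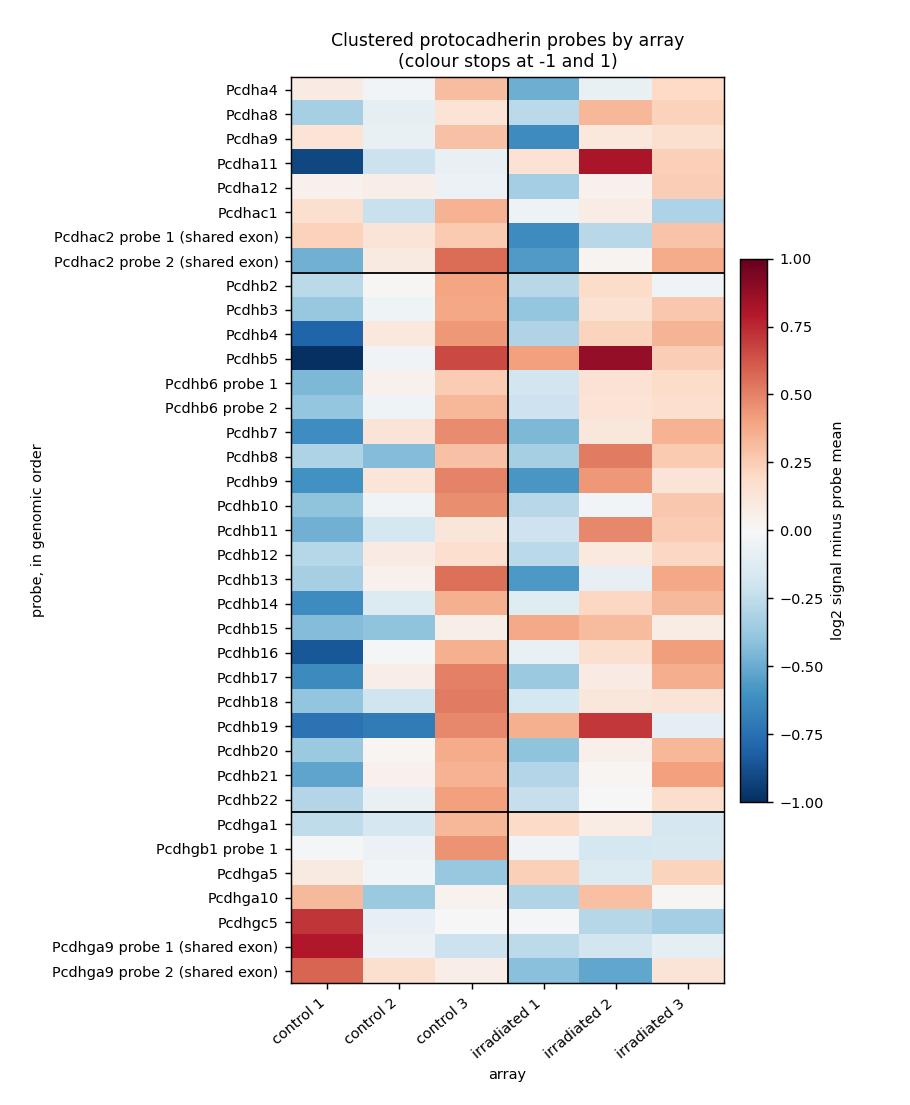
Log2 signal of the 37 tested probes on each of the 6 arrays, as the difference from the probe's mean over the arrays; rows follow the order along the chromosome and lines separate the alpha, beta and gamma clusters. Most beta probes are blue on control 1 and irradiated 1 and red on control 3 and irradiated 3, while Pcdhgc5 and the Pcdhga9 probes are red on control 1.

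The next question was whether the exposure altered the expression of these genes. In limma, none of the 37 member probes passed a Benjamini-Hochberg adjusted p of 0.05, and neither did any other probe (0% of 40552). The smallest adjusted p was 0.519. At an unadjusted p under 0.05 there was 1 member, Pcdha11, compared with 9.03% of all tested probes. In 2 members, Pcdha11 and Pcdhb15, every irradiated culture lay above every control, compared with 5.76% of all probes. No member had every irradiated culture below every control, compared with 9.77% of all probes. Differences above 0 were found in 21 of 37 members and in 44% of all probes, and the median was 0.02 over the members and -0.05 over all probes.

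**Figure D2:**
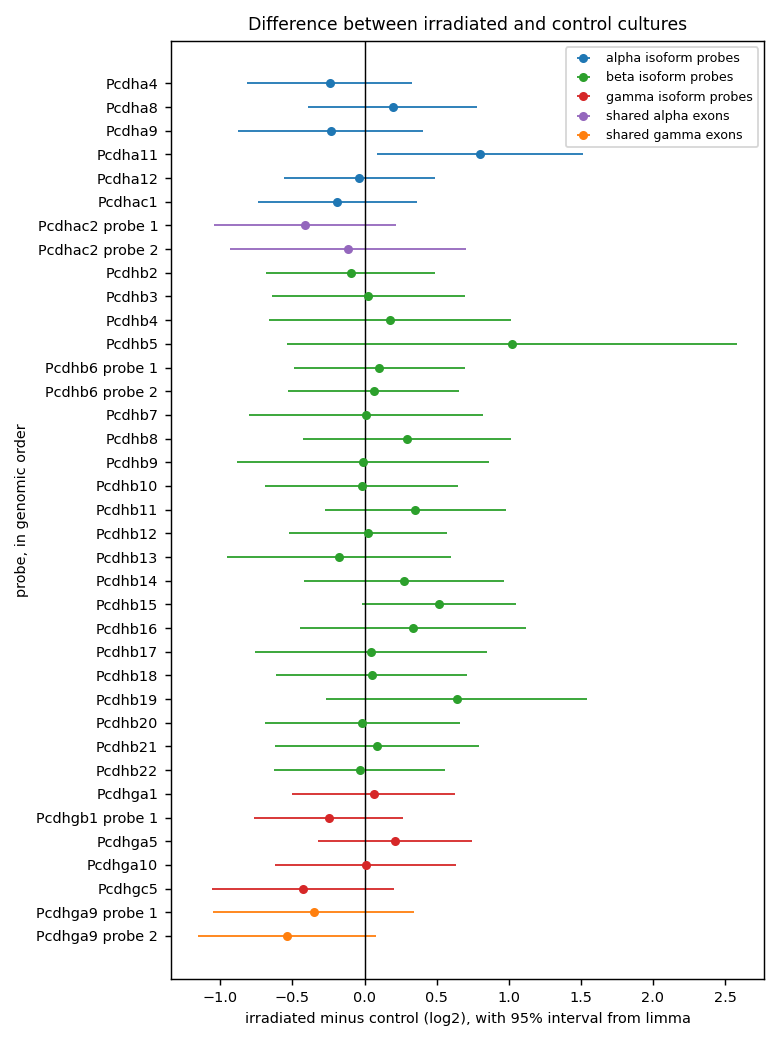
Difference between irradiated and control cultures (irradiated minus control, log2) for each tested probe in chromosomal order, with its 95% interval from limma over 3 and 3 arrays; colours mark the probe classes. Only the interval of Pcdha11 (0.08 to 1.52) lies wholly above 0 and none lies wholly below. All 4 shared exon probes lie below 0, as do 22697 of 40552 tested probes.

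The probes called shared exon probes list transcripts of several isoforms and lie beyond the single-isoform probes of their cluster. They were taken to read the output of a cluster rather than a single isoform. Both probes named Pcdhac2 (37344758 to 37344817 and 37347235 to 37347294 on chromosome 18) list transcripts of Pcdhac2, Pcdha9, Pcdha4 and Pcdhac1. Both probes named Pcdhga9 (37999725 to 37999784 and 38001378 to 38001437) list transcripts of Pcdhga9, Pcdhga5, Pcdhga6 and Pcdhga1. The gene name of these 4 probes therefore does not tell the isoform. No annotation of exons in this build was used. Pcdhga9 probes 1 and 2 had control means of 0.84 and 6.65, and why they lie so far apart was not tested.

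For alpha, the levels of Pcdhac2 probe 1 were 4.38, 4.27 and 4.40 in controls 1 to 3 and 3.52, 3.87 and 4.43 in irradiated 1 to 3. The controls were close together, and irradiated 1 and 2 lay below them while irradiated 3 lay above. The difference was -0.41 (95% interval -1.04 to 0.22, adjusted p = 0.574 in limma), and it was -0.20 without irradiated 1 and -0.23 under quantile normalisation. Pcdhac2 probe 2, nearer the end of the transcript, was at 4.13, 4.70 and 5.17 in controls 1 to 3 and at 4.04, 4.64 and 4.98 in irradiated 1 to 3. The groups overlapped almost completely, and cultures of the same number had similar levels. The difference was -0.11 (95% interval -0.93 to 0.71). It was -0.38 without control 1 and turned to 0.096 under quantile normalisation. The pair thus differed in how they varied over the controls, with an SD of 0.07 for probe 1 and 0.52 for probe 2.

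For gamma, Pcdhga9 probe 2, the last probe of the locus, was at 6.97, 6.55 and 6.45 in controls 1 to 3 and at 5.96, 5.86 and 6.51 in irradiated 1 to 3. Irradiated 1 and 2 lay below every control and irradiated 3 fell among them. The difference was -0.54 (95% interval -1.16 to 0.08), with an adjusted p of 0.519 in limma. It was -0.38 without control 1 and -0.14 under quantile normalisation, a setting that moves this value by more than 1.5 times. Pcdhga9 probe 1 was at 1.47, 0.60 and 0.45 in controls 1 to 3 and at 0.41, 0.48 and 0.57 in irradiated 1 to 3. Control 1 was high and the other 5 arrays lay close together. The difference of -0.35 (95% interval -1.05 to 0.34) became -0.04 without control 1.

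The median difference over the 4 shared exon probes was -0.38, beside -0.05 over all tested probes. All 4 lay below 0, as did 22697 of 40552 tested probes. Over the brightest probe of each gene the median was -0.13, with 34.1% above 0. Under quantile normalisation the median over the 4 probes was -0.18, with Pcdhac2 probe 2 above 0, and the median over all probes was near 0. Without both arrays numbered 1 the median over the 4 probes was -0.16. None of these 4 probes differed from control beyond the spread between arrays.

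**Figure D3:**
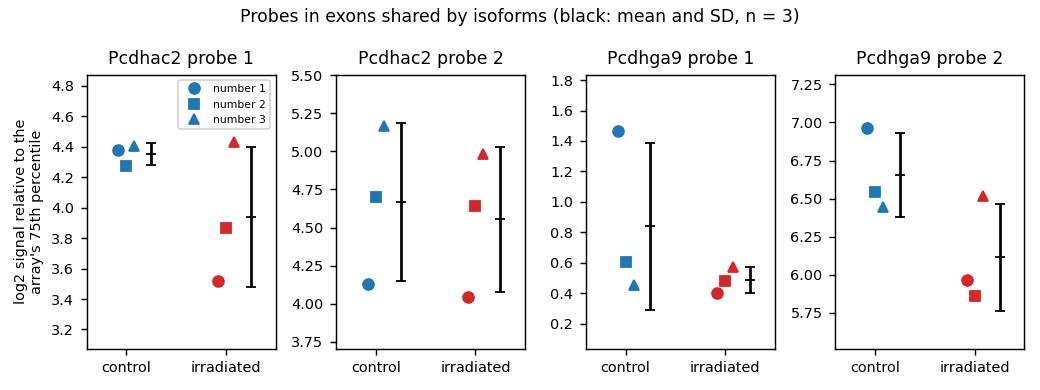
Log2 signal minus the 75th percentile of each array for the 4 probes in exons shared by isoforms; each symbol is an array, its shape gives the number in the labels, and black bars show the mean and SD of 3 arrays. Irradiated 3 lies level with the controls for Pcdhac2 probe 1 and Pcdhga9 probe 2, while irradiated 1 and 2 lie below them.

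Among the C-type isoforms, Pcdhac1 and Pcdhgc5 had a probe of their own. The name Pcdhac2 was carried only by the shared exon probes above, and Pcdhgc3 and Pcdhgc4 had no member probe. The Pcdhgc5 protein is known to associate with GABA-A receptors at inhibitory synapses. Its probe (37979245 to 37979304) was at -2.98, -3.77 and -3.69 in controls 1 to 3 and at -3.71, -3.97 and -4.03 in irradiated 1 to 3. Irradiated 2 and 3 lay below every control, irradiated 1 lay within their range, and control 1 was the highest array. The difference was -0.43 (95% interval -1.06 to 0.21, adjusted p = 0.564 in limma), and -0.17 without control 1. Pcdhac1 was at -5.04, -5.43 and -4.86 in controls 1 to 3 and at -5.25, -5.13 and -5.51 in irradiated 1 to 3. The groups overlapped, with a difference of -0.19 (95% interval -0.74 to 0.36), on a probe close to background.

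The 6 alpha isoform probes had a median difference of -0.11, with 2 above and 4 below 0. The median turned to 0.07 without irradiated 1 and to 0.08 without both arrays numbered 1. Pcdha11 had the smallest p of any member. Its probe (37172501 to 37172560) was at -4.99, -4.29 and -4.15 in controls 1 to 3 and at -3.93, -3.26 and -3.84 in irradiated 1 to 3. Every irradiated culture was above every control. The difference was 0.80 (95% interval 0.08 to 1.52), with an unadjusted p of 0.0331 and an adjusted p of 0.519 in limma. The probe was dim, well above background in 2 of 3 controls. The difference was 0.54 without control 1 and turned to -0.14 with normexp background correction, so even its direction depended on how background was removed.

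The other alpha isoforms did not separate the groups. Pcdha8, whose probe also lists transcripts of Pcdha7, was at 0.33, 0.57 and 0.80 in controls 1 to 3 and at 0.39, 0.99 and 0.89 in irradiated 1 to 3, a difference of 0.19 (95% interval -0.39 to 0.78) that was 0.08 without control 1. It was lowest on the array numbered 1 in both groups. Pcdha4 was at -1.48, -1.59 and -1.26 in controls 1 to 3 and at -2.05, -1.64 and -1.37 in irradiated 1 to 3, a difference of -0.24 (95% interval -0.82 to 0.33) that was -0.06 without irradiated 1. Its irradiated 1 and 2 values lay below every control. Pcdha9 and Pcdha12 differed by -0.24 and -0.04, and irradiated 1 was the lowest array for both.

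Each of the 22 tested beta probes is named for a single gene and reads no shared exon, so the beta cluster gives the fullest view of single isoforms on this array. The differences of the beta probes ran from -0.18 (Pcdhb13) to 1.02 (Pcdhb5), with a median of 0.06. They were above 0 for 16 of 22 probes, compared with 44% of all probes. Neither the sign of the median nor this count was stable. The median was -0.14 without control 1, -0.04 without irradiated 3, -0.04 with normexp background correction and -0.003 with each array scaled to its median. The count was 11 of 22 with each array scaled to its median, 8 with normexp background correction, 6 without control 1 and 9 without irradiated 3. Leaving out a single array keeps its number in the other group only. Without both arrays numbered 1 the median was 0.015 and the count 13 of 22, and the replicate block left both unchanged. The typical beta difference was small: its median size was 0.09, compared with 0.27 over all tested probes.

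Pcdhb15 was the beta probe with the smallest p. It was at -2.43, -2.40 and -1.93 in controls 1 to 3 and at -1.61, -1.68 and -1.92 in irradiated 1 to 3. Every irradiated culture lay above every control, although irradiated 3 and control 3 were nearly level. The difference was 0.51 (95% interval -0.02 to 1.05), with an adjusted p of 0.519 in limma, and 0.43 without control 1. The direction held with normexp background correction, at 0.19.

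The beta differences above that of Pcdhb15 came from dim probes that were low on control 1. Pcdhb5 was at -6.52, -4.38 and -3.69 in controls 1 to 3 and at -3.95, -3.47 and -4.10 in irradiated 1 to 3. Control 1 lay more than 2 log2 units below the other arrays and was not well above background. The difference of 1.02 (95% interval -0.54 to 2.59) became 0.20 without that array and -0.21 with normexp background correction. Pcdhb19 was at -5.79, -5.75 and -4.57 in controls 1 to 3 and at -4.70, -4.35 and -5.16 in irradiated 1 to 3. Controls 1 and 2 were low and the groups overlapped, with a difference of 0.64 (95% interval -0.27 to 1.54). It was 0.43 without control 1 and -0.38 with normexp background correction.

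Among the gamma isoforms the median difference was 0.007 over 5 tested probes, with 3 above and 2 below 0, and it ranged from -0.18 to 0.03 with 1 array left out. Pcdhgb1 probe 1 (37842433 to 37842492) was at -4.17, -4.22 and -3.71 in controls 1 to 3 and at -4.20, -4.33 and -4.32 in irradiated 1 to 3. Control 3 was the high array, and the difference was -0.25 (95% interval -0.76 to 0.27), or -0.09 without that array. Pcdhga1 and Pcdhga10 differed by 0.06 and 0.01 with overlapping groups.

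The beta probes varied with the number of the culture more than with its group. They were lowest on the array numbered 1 in both groups for 18 of 22 probes, compared with 24.1% of all tested probes. In 15 of 22 they were in addition highest on number 3 in both groups, compared with 7.47% of all probes. The exceptions to the lowest rank on number 1 were Pcdhb5, Pcdhb8, Pcdhb15 and Pcdhb19. These counts are descriptions of neighbouring genes measured in the same 6 cultures, and the labels do not say what the number stands for. In limma with treatment and number as terms, 7 of 22 beta probes had an unadjusted p under 0.05 for the number, compared with 12.7% of all probes. None passed an adjusted p of 0.05 (smallest 0.282), compared with 0.00247% of all probes.

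Named here are the 3 beta probes with the smallest p for the number, so a spread by number in them was fixed by that choice. Pcdhb7 was at -0.32, 0.42 and 0.77 in controls 1 to 3 and at -0.15, 0.41 and 0.65 in irradiated 1 to 3. Pcdhb13 was at -2.16, -1.78 and -1.28 in controls 1 to 3 and at -2.40, -1.91 and -1.44 in irradiated 1 to 3. Pcdhb17 was at -0.15, 0.56 and 0.99 in controls 1 to 3 and at 0.12, 0.57 and 0.85 in irradiated 1 to 3. In each of these probes the arrays numbered 1 were the lowest pair and those numbered 3 the highest, and same-numbered cultures lay closer to each other than to the rest of their group. Their differences between irradiated and control were 0.01, -0.18 and 0.04, and -0.30, -0.39 and -0.26 without control 1. Without both arrays numbered 1 the differences were -0.068, -0.15 and -0.065. Their adjusted p for the number was 0.282, 0.289 and 0.310 in limma.

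The median deviation of the beta probes from their own mean was -0.44, -0.02 and 0.39 in controls 1 to 3 and -0.27, 0.15 and 0.26 in irradiated 1 to 3. Over all tested probes the medians were between -0.05 and 0.10. Within numbers, the irradiated culture was the lower of the pair for 5 of 22 beta probes at number 1, for 3 at number 2 and for 17 at number 3. Over all 40552 tested probes it was the lower for 21033, 24402 and 22160. In the irradiated cultures by themselves, number 1 was lowest for 19 of 22 beta probes, compared with 40.8% of all probes. It was lowest for 21 of 22 in the controls by themselves, compared with 45% of all probes. Under other scalings and background corrections and in the authors' deposited table the count over both groups was 16 to 18 of 22. The share of all probes under those settings was 17.4% to 24.7%. With any single array left out, however, 0 to 6 of the 22 beta probes had an unadjusted p under 0.05 for the number, and 0 without control 1, control 2 or irradiated 2. The share of all probes in those fits is not given here, so the change cannot be read as particular to the beta probes.

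The alpha and gamma probes did not share this order as a group. Number 1 was lowest in both groups for 2 of 6 alpha isoform probes, Pcdha8 and Pcdha11, for 0 of 5 gamma isoform probes and for 1 of 4 shared exon probes. The shared exon probe was Pcdhac2 probe 2, which had the smallest adjusted p for the number among the members, 0.256 in limma. Pcdhga5 and Pcdhgc5 were instead highest on number 1 in both groups, compared with 17.7% of all probes. Both Pcdhga9 probes were highest on control 1 and not on irradiated 1. Whether the beta probes differ from the alpha or gamma probes in this respect was not tested.

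Cell type markers moved with the number too. Microglia markers were highest on number 1 in both groups for 7 of 8 genes and astrocyte markers for 7 of 8, compared with 18.8% of all genes. The summed astrocyte level, relative to the 75th percentile, ranged from 165 to 466 in controls and from 160 to 331 in irradiated cultures, with number 1 highest and number 3 lowest in each group. The summed microglia level ranged from 9.80 to 19.6 in controls and from 11.9 to 25.7 in irradiated cultures. Neuron markers had no such order: number 1 was lowest in both groups for 2 of 8 genes and highest for 1 of 8, and their summed level ranged from 267 to 328 in controls and from 229 to 293 in irradiated cultures. Markers of oligodendrocytes and their precursors were highest on number 1 in both groups for 4 of 8 genes, with a summed level of 45.6 to 142 in controls and 47.0 to 126 in irradiated cultures. The same held for 2 of 4 measured endothelial and pericyte markers, 1 of 6 choroid plexus markers, 1 of 4 markers of meningeal fibroblasts and 0 of 3 measured serotonergic markers. Every marker of neurons, astrocytes and microglia was well above background on all 6 arrays. The part of these cell types in the order of the beta probes was not tested.

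**Figure D4:**
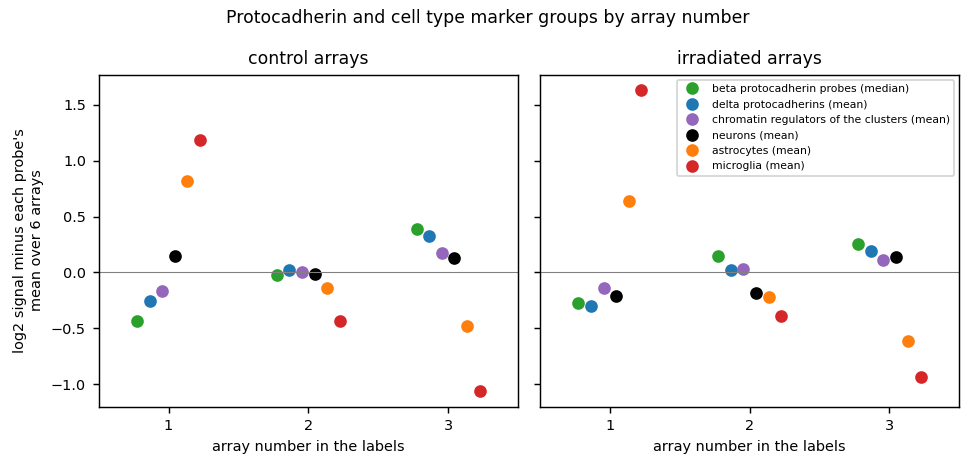
Deviation of each group of probes from its mean over the 6 arrays (log2), for the control arrays on the left and the irradiated arrays on the right, by the number in the labels; points are the median over 22 beta probes or the mean over the genes of a list. Beta and delta protocadherins and the chromatin regulators lie lowest on number 1 (beta -0.44 and -0.27) and highest on number 3, while astrocyte and microglia markers run the opposite way.

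The rest of the pathway was read from lists of genes. Delta protocadherins are the relatives of the clustered genes that lie outside these clusters and have no shared promoter choice. In limma, none of 10 passed an adjusted p of 0.05 for irradiation, with 5 of 10 above 0, compared with 34.1% of all genes by 1 probe each. The median was -0.01, beside -0.13 over all genes, and under quantile normalisation it turned to 0.13, beside -0.05 over all genes. The smallest p values were those of Pcdh1, with a difference of -0.66 (95% interval -1.63 to 0.31), and of Pcdh9, with 0.19 (95% interval -0.42 to 0.81). Number 1 was lowest in both groups for 5 of 10, compared with 25.9% of all genes, a share no higher than that of the chromatin regulators below. Chosen after its values were seen, Pcdh19, a delta protocadherin mutated in an X-linked epilepsy, was at 1.49, 3.03 and 3.37 in controls 1 to 3 and at 1.80, 3.15 and 3.25 in irradiated 1 to 3. Both cultures numbered 1 were far below the rest, with an adjusted p for the number of 0.120 in limma.

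None of the 19 chromatin regulators of the clusters passed an adjusted p of 0.05 in limma, with 10 of 19 above 0 and a median of 0.03. Number 1 was lowest in both groups for 11 of 19, so the order by number was not limited to protocadherins. Ctcf, which brings the distant enhancer to the chosen promoter, was at 1.95, 2.08 and 2.30 in controls 1 to 3 and at 1.84, 2.04 and 2.20 in irradiated 1 to 3. Its levels overlapped between groups, with a difference of -0.08 (95% interval -0.58 to 0.42) that was 0.02 under quantile normalisation. Smchd1, a silencing protein that acts on the clustered genes, differed by 0.12 (95% interval -0.48 to 0.73). Dnmt1, which maintains DNA methylation, differed by -0.42 (95% interval -1.04 to 0.19) and the cohesin cofactor Pds5a by 0.30 (95% interval -0.14 to 0.73). In Pds5a, alone in this list, every irradiated culture lay above every control, compared with 3.85% of all genes.

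None of the 21 shedding and signalling partners passed an adjusted p of 0.05 in limma, with 6 of 21 above 0 and a median of -0.09. Under quantile normalisation the balance turned, to 13 of 21 above 0 and a median of 0.07, where 43.3% of all genes were above 0. They include Adam10 and the gamma-secretase subunits, which cut protocadherins at the membrane, the kinases that the intracellular domains restrain, and the Wave complex that links them to actin. Ncstn, a gamma-secretase subunit, had the smallest p in the list, with a difference of -0.52 (95% interval -1.15 to 0.11). Psenen, another subunit, differed by -0.62 (95% interval -1.44 to 0.20). Rac1, the small GTPase upstream of the Wave complex and named after its values were seen, was the gene of this list in which every irradiated culture lay below every control, compared with 12.2% of all genes. Its difference was -0.19 (95% interval -0.62 to 0.25), and 0.007 under quantile normalisation.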

How the data were processed

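The authors deposited spot intensity values. The submitters' processing notes name Agilent Feature Extraction 10.7.1.1, and the processed signal in these files is background-subtracted and detrended within an array, per the file headers. The authors also deposited a log2 table, quantile normalised to judge by its values, which served as an alternative. All 6 arrays shared 1 slide and 1 scan, per the file headers, so neither could be tested.

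Outlier spots were dropped, log2 processed signals were averaged per probe, and the 75th percentile over probes was subtracted from each array. Probes well above background on 3 or more of 6 arrays were tested, 40552 in all. Genes outside the clusters were read from their brightest probe. limma 3.58.1 (R 4.3.3) compared the groups over all 6 arrays, with Benjamini-Hochberg adjustment over all tested probes. The scripts were tested on simulated data.

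The members and the gene lists were chosen with earlier results of these data known. Given with all array values were shared exon probes, C-type isoforms, the 3 smallest p values per family in either test, and Ctcf; in other lists the 2 smallest p values and Smchd1 were named. The number of arrays limits the precision.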

Additional observations from a re-analysis of the deposited data

How the results depend on the processing

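No member probe passed an adjusted p of 0.05 under any of the 17 other settings run with limma, for irradiation or, where run, for the number. Over all probes, the count for irradiation was 0 and became 4 under quantile normalisation and 4 in the deposited table (Gm20783, Adam23, AK045452 and Birc6, named after their values were seen). The levels of these 4 were -8.18 to -7.24 in the controls and -5.93 to -5.12 in the irradiated cultures. On every control array they were below the dimmest signal that counted as well above background (-5.16, -5.28 and -5.91). They thus passed the filter through the irradiated arrays alone, close to background. The count for the number was 1 (Mobp, named after its values were seen), and 604 with median scaling, 265 with normexp, 224 for probes well above background on all 6 arrays, 173 with 1 probe per gene, and 0 under quantile normalisation, with no filter and in the deposited table; with 1 array left out it ranged from 0 to 682. The cause was not tested. Members at an unadjusted p under 0.05 for irradiation numbered 1, and 5 with normexp, 3 with no filter, 2 with the 75th percentile taken over spots and 0 to 4 with 1 array left out. Beta probes at an unadjusted p under 0.05 for the number numbered 7, and 4 with normexp or no filter. The matching shares of all probes under these other settings are not given here, so these counts cannot be set against them. The gamma isoform median of 0.007 became -0.51 with normexp and -0.25 on probes measured on all 6 arrays, where fewer probes remained.

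Of the 17 named differences, these changed sign. Pcdhac2 probe 2 was at 0.096 under quantile normalisation, with or without the replicate block, and 0.096 in the deposited table. Pcdhb7 and Pcdhb17 were at -0.047 and -0.013 with median scaling and at -0.068 and -0.065 without both arrays numbered 1. With normexp, Pcdha11 was at -0.14, Pcdhb19 at -0.38, Pcdhb5 at -0.21 and Pcdhga5 at -0.51. With 1 array left out, Pcdhac2 probe 2 ranged from -0.38 to 0.14, Pcdhb7 from -0.30 to 0.25, Pcdhb17 from -0.26 to 0.31 and Pcdhb13 from -0.42 to 0.063.

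Same-numbered arrays deviated from their group means with correlations of 0.46, 0.33 and 0.086 over probes for the numbers 1 to 3. Over genes, 1 probe each, they were 0.53, 0.42 and 0.22. The limit of 0.1 is thus passed for every number over genes and not over the probes that were tested. The fit without the block was kept and the block is given here. Control 3 correlated more with irradiated 2 (0.36 over probes, 0.33 over genes) than with irradiated 3. Control 2 and irradiated 3 correlated at 0.15 over probes and 0.17 over genes, and the remaining pairs of unlike number correlated negatively. With the replicate block 0 probes passed for irradiation, the smallest adjusted p of a named member was 0.495, and the block changed no call. The 75th percentile over spots, the counts of beta probes above 0 and the order by number under other scalings were chosen after seeing the data.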

Other observations

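Between the first and the last member probe, 8 probes named for other genes were read as well. The gene model Gm38666, on the same strand as the members, was at -2.54, -1.79 and -1.25 in controls 1 to 3 and at -1.58, -1.16 and -1.32 in irradiated 1 to 3 on its first probe, a difference of 0.51 (95% interval -0.30 to 1.31). Control 1 was its lowest array, as for most beta probes. Slc25a2, a mitochondrial ornithine carrier whose probe lies on the opposite strand, differed by 0.56 (95% interval -0.17 to 1.28, adjusted p = 0.531 in limma). Taf7, a subunit of the general transcription factor TFIID also on the opposite strand, differed by 0.31 on one probe and 0.06 on the other. 3222401L13Rik differed by -0.26. Gm10545 and Gm10544, both on the opposite strand, were not well above background on any array.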
